A study of Mus musculus with 21 samples.

Results

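The genes of the IL-7 receptor, of the Janus kinases (JAKs) and of STAT5 were examined in primary mouse B cell precursors transduced with leukemia-inducing oncogenes. They were chosen by symbol, with earlier results of these data known: the receptor chains Il7r, Il2rg and Crlf2, the kinases Jak1, Jak2, Jak3 and Tyk2, and the transcription factors Stat5a, Stat5b and Stat3. These were 10 of 24421 gene symbols, and all 10 were among the 12786 genes that passed the filter on low counts. Poly(A) RNA was sequenced in 2 libraries for each of 3 conditions. All cells came from the bone marrow of 53BP1-/- C57BL/6 mice, which lack a factor of DNA double-strand break repair, and all were cultured with 10 ng/ml recombinant IL-7 and spinoculated with the retroviral vector MIGR1. The vector was empty (EV, the control), encoded human BCR-ABL1 p210, the fusion kinase of Philadelphia chromosome-positive leukemia, or encoded the mouse transcription factor C-MYC. The labels give day 7 to 9 after transduction and no age of the mice, and no wild-type cells are among these 6 libraries. Dead cells were depleted before extraction, and no sorting of transduced cells is given in the sources used here. The libraries of a condition came from duplicate experiments, and nothing says that they came from separate mice, so the p-values below measure only the spread between these libraries.

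The receptor for interleukin-7 (IL-7) consists of the IL-7 receptor alpha chain (Il7r) and the common gamma chain (Il2rg), which carry Jak1 and Jak3. Ligand binding lets these kinases phosphorylate STAT5A and STAT5B, and mouse B cell precursors depend on this signal for survival and proliferation. Il7r also pairs with Crlf2 in the receptor for thymic stromal lymphopoietin (TSLP), which signals through Jak1 and Jak2. BCR-ABL1 is known to phosphorylate STAT5 without cytokine. RNA counts hold no information on phosphorylation or on protein at the cell surface.

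Libraries held between 20687092 and 24095955 counts. As a check of the labels, Myc had a log2 fold change of 3.23 in C-MYC against EV (edgeR adjusted p = 0.00018), and counts of Myc cannot tell the mouse vector from the endogenous gene. B cell precursor markers were high everywhere: the 12 markers, among them Cd79a, Pax5 and Ebf1, summed to between 6257 and 7003 counts per 1000000 library counts (CPM) in EV, between 6581 and 7284 under BCR-ABL1 and between 3721 and 4428 under C-MYC. In C-MYC, 10 of these 12 were lower than in EV and 0 were higher (edgeR adjusted p below 0.05). In BCR-ABL1, 2 were lower and 1 was higher. Over all 12786 genes tested, 24.5% were lower and 18.6% higher in C-MYC than in EV. In BCR-ABL1 the shares of all genes were 12.0% lower and 5.08% higher, and the counts of markers here and below are to be read against these shares. Markers of other cell types were more abundant in EV than in either oncogene condition. The 11 myeloid markers measured summed to between 1241 and 1346 CPM in EV, 149 and 170 under BCR-ABL1, and 222 and 383 under C-MYC, and all 11 were lower in both conditions than in EV. The 10 T and NK cell markers summed to between 123 and 161 CPM in EV, 39.8 and 40.6 under BCR-ABL1 and 33.1 and 38.8 under C-MYC, with 9 lower in each. The 5 mast cell and basophil markers summed to 85.1 and 87.2 CPM in EV and to at most 4.89 CPM elsewhere, and the 6 stromal markers to between 103 and 157 CPM in EV and at most 6.02 elsewhere. The 5 dendritic cell markers summed to between 19.9 and 22.9 CPM in EV and at most 11.3 elsewhere, and the 7 erythroid and megakaryocyte markers, among them Hba-a1 and Hbb-bt at 0 counts in all libraries, to between 37.4 and 47.4 CPM in EV and at most 13.3 elsewhere. In the deposited FPKM values Hbb-bt was above 0 in EV (0.190 and 0.137) and in BCR-ABL1 replicate 2 (0.233). In these bulk samples fewer cells of a type and less RNA per cell cannot be told apart. The part of these other cells in the comparisons with EV below was not tested. The EV libraries also differed from each other, with 202 and 51.1 CPM of the neutrophil gene S100a8 in replicate 1 and 2.

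Il7r fell in both oncogene conditions. Its level was 184 and 131 CPM in the EV libraries, 46.6 and 42.8 under BCR-ABL1 and 50.8 and 52.4 under C-MYC, so that every EV library lay above every oncogene library and the 2 oncogene conditions lay close to each other. CPM values here are scaled by the trimmed mean of M-values (TMM). In BCR-ABL1 the log2 fold change of Il7r against EV was -1.82 (SE 0.17; 95% confidence interval -2.21 to -1.42; edgeR quasi-likelihood test, Benjamini-Hochberg adjusted p = 0.00091), a level 3.52-fold lower. In C-MYC it was -1.61 (SE 0.17; interval -2.00 to -1.21; edgeR adjusted p = 0.00051), a level 3.05-fold lower. Between BCR-ABL1 and C-MYC the difference was -0.21 (interval -0.60 to 0.18; edgeR adjusted p = 0.41), which does not show that the levels were alike. Both falls of Il7r passed the threshold under all 14 alternatives tried, with log2 fold changes between -2.04 and -1.54 in BCR-ABL1 and between -1.83 and -1.34 in C-MYC. The T and NK cell, myeloid, mast cell and stromal markers fell beside Il7r in both conditions, as given above.

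The common gamma chain gene Il2rg, shared by the receptors for IL-2, IL-4, IL-7, IL-9, IL-15 and IL-21, fell in C-MYC. It was at 169 and 129 CPM in EV, 128 and 108 under BCR-ABL1 and 67.6 and 54.2 under C-MYC. The C-MYC libraries lay below all others, and the BCR-ABL1 libraries lay just below EV. The log2 fold change in C-MYC against EV was -1.29 (SE 0.18; interval -1.70 to -0.88; edgeR adjusted p = 0.0012), whereas that in BCR-ABL1 was -0.34 (interval -0.74 to 0.07; edgeR adjusted p = 0.23). Tested directly, Il2rg was 1.94-fold higher in BCR-ABL1 than in C-MYC (log2 fold change 0.96, SE 0.18, edgeR adjusted p = 0.0085). The deposited FPKM values of Il2rg spread more than its counts, with 70.5 and 118.8 FPKM under BCR-ABL1 and 70.1 and 34.0 under C-MYC, and limma on them gave adjusted p-values of 0.11 for C-MYC against EV and 0.15 for BCR-ABL1 against C-MYC. Without BCR-ABL1 replicate 1 and without C-MYC replicate 2 the edgeR adjusted p of the direct comparison was 0.080 and 0.073.

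Crlf2, the partner of Il7r in the TSLP receptor, followed the same order of conditions as Il2rg. Its level was 82.5 and 52.2 CPM in EV, 60.4 and 57.4 under BCR-ABL1 and 30.2 and 26.3 under C-MYC. The BCR-ABL1 libraries lay between the EV libraries, and both C-MYC libraries lay below all others. The log2 fold change was -1.25 in C-MYC against EV (SE 0.21; interval -1.75 to -0.76; edgeR adjusted p = 0.0028) and 1.06 in BCR-ABL1 against C-MYC (SE 0.21; edgeR adjusted p = 0.012). In BCR-ABL1 against EV it was -0.19 (interval -0.68 to 0.29; edgeR adjusted p = 0.58), and 1 EV library decided its sign: it was 0.18 without EV replicate 1 and -0.48 without EV replicate 2 (edgeR adjusted p = 0.39 and 0.034). The call between BCR-ABL1 and C-MYC was lost whichever of their 4 libraries was left out, with edgeR adjusted p-values between 0.053 and 0.093.

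**Figure D1:**
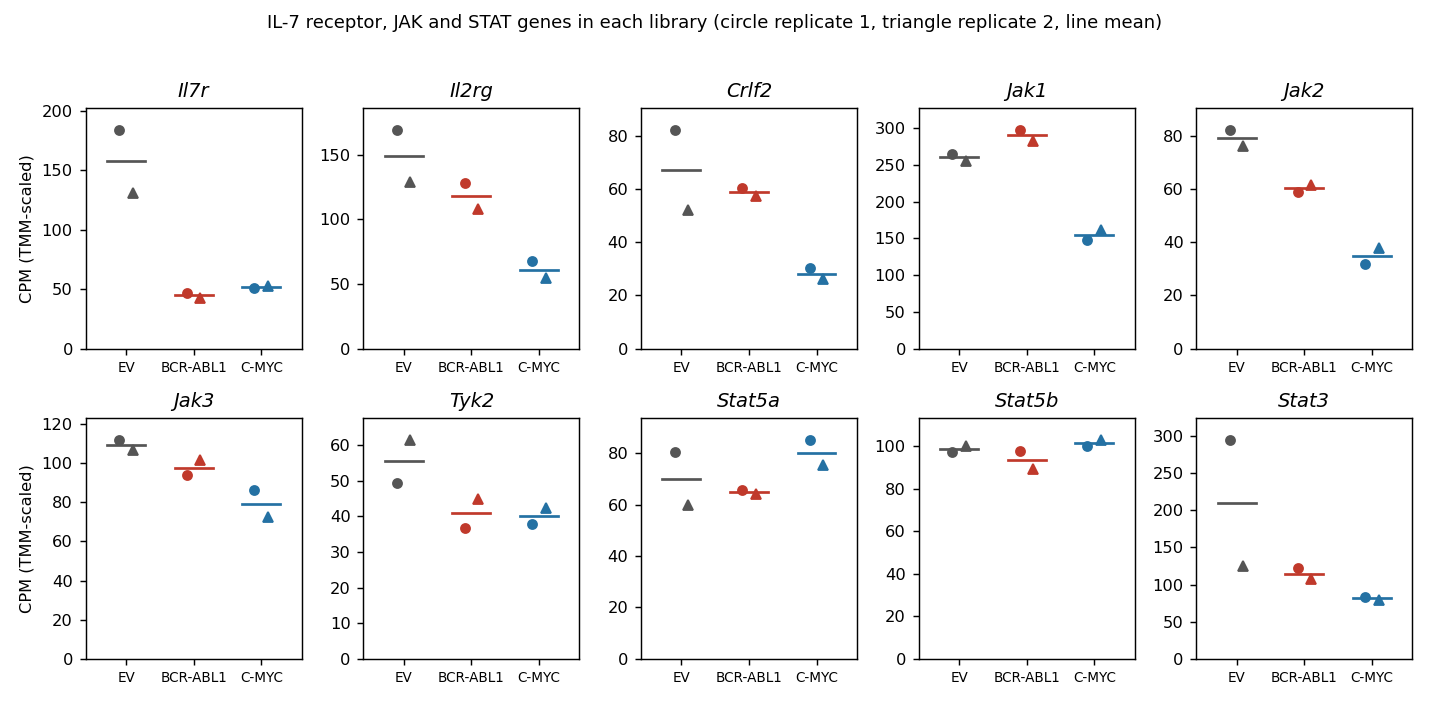
CPM (TMM-scaled, axes from 0) of the 10 genes in each library, by condition, with circles for replicate 1, triangles for replicate 2 and lines for the mean of the 2. Il7r was at 131 CPM or more in EV and at 52.4 or less elsewhere, whereas Stat5b stayed between 89.5 and 103 CPM in all 6 libraries.

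The receptor chains were also compared with each other within each library. Per kilobase of annotated exon, the ratio of Il7r to Il2rg was 0.556 and 0.519 in EV, 0.186 and 0.203 under BCR-ABL1 and 0.385 and 0.495 under C-MYC. The BCR-ABL1 libraries had the lowest ratios, and no libraries of the 3 conditions overlapped. The mean log2 ratio was different from that of EV by -1.47 under BCR-ABL1 and by -0.30 under C-MYC. With 2 libraries against 2, an exact permutation test, 2-sided, cannot go below p = 0.333, the value found for each pair of conditions. The ratio of Il7r to Crlf2 was 0.715 and 0.802 in EV, 0.248 and 0.239 under BCR-ABL1 and 0.540 and 0.640 under C-MYC, with the same order of conditions and the same exact p.

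The start-site windows of the 3 receptor chains are shown because these genes bind the ligands and all 3 fell in C-MYC. The sequences are from RefSeq on GRCm38.p6, with 250 bases before and 50 after the annotated start, and a RefSeq window was matched for all 10 genes (12 windows). RefSeq places the start of Il7r at chr15:9529876 and GENCODE at chr15:9530176 on the minus strand. The whole window of Il7r therefore lies inside the GENCODE gene, downstream of the GENCODE start. Searched on both strands were the STAT motif of the GAS type (TTCNNNGAA), the E-box bound by MYC (CACGTG) and a motif of FOXO factors (GTAAACA), which do not overlap each other in these windows. Capitals mark a match.
Il7r, chr15:9529827-9530126, minus strand: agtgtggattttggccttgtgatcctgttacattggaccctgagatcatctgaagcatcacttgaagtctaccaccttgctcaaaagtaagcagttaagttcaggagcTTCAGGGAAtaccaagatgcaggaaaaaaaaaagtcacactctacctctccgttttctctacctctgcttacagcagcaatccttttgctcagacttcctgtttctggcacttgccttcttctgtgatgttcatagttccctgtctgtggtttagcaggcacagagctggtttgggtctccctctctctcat
Il2rg, chrX:101268206-101268505, minus strand: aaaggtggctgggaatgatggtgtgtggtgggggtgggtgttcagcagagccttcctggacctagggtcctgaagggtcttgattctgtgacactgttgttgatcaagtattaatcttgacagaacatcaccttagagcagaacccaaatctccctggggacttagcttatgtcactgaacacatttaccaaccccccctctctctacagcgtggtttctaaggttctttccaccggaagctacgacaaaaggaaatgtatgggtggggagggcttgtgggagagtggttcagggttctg
Crlf2, chr5:109558944-109559243, minus strand: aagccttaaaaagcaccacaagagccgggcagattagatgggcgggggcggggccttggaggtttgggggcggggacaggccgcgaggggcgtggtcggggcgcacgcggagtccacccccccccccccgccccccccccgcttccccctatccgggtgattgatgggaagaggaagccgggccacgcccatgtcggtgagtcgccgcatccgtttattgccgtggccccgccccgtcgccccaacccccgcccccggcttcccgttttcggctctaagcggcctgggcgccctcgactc
The window of Il7r held 1 GAS motif, whose first base lies at position -142 from the RefSeq start site, and none of the 3 motifs was found in the windows of the other 9 genes. Among 32851 mouse windows of this length, 8.3% held the GAS motif, 7.15% the E-box and 3.65% the FOXO motif. A match is a run of letters and not a measured binding site. By base composition the window of Il7r had 45.7% G or C and that of Crlf2 71.7%, beside a median of 52.7% over all windows.

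The receptor genes lie on different chromosomes of GRCm38. In the GENCODE annotation Il7r spans chr15:9505788-9530176 on the minus strand with 4663 exonic bases, Il2rg spans chrX:101264378-101268255 on the minus strand with 2387, and Crlf2 spans chr5:109554709-109558993 on the minus strand with 1495. An overlapping gene model, Gm20489, shares 728 exonic bases (30.5%) with Il2rg on the same strand. How the counting program treated such overlaps and strand is not given in the sources used here, so counts of Il2rg carry that uncertainty.

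Jak1, the kinase carried by Il7r and by many other cytokine receptors, fell in C-MYC. It was at 265 and 256 CPM in EV, 298 and 283 under BCR-ABL1 and 148 and 161 under C-MYC. The 3 conditions did not overlap, with BCR-ABL1 highest and C-MYC lowest. The log2 fold change was -0.75 in C-MYC against EV (SE 0.10; interval -0.98 to -0.52; edgeR adjusted p = 0.0011) and 0.91 in BCR-ABL1 against C-MYC (SE 0.10; interval 0.68 to 1.14; edgeR adjusted p = 0.0015). In BCR-ABL1 against EV it was 0.16 (interval -0.07 to 0.39; edgeR adjusted p = 0.32). Both calls of Jak1 held under all 14 alternatives.

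Jak2, which serves the TSLP receptor and the receptors of the IL-3 and erythropoietin type, fell in C-MYC too. Its level was 82.5 and 76.2 CPM in EV, 58.9 and 61.8 under BCR-ABL1 and 31.7 and 37.8 under C-MYC. Again no conditions overlapped, here with EV highest. In C-MYC against EV the log2 fold change was -1.19 (SE 0.13; interval -1.50 to -0.88; edgeR adjusted p = 0.00059), a 2.28-fold lower level that passed under all 14 alternatives. In BCR-ABL1 it was 0.80 above C-MYC (SE 0.13; edgeR adjusted p = 0.0062) and -0.40 against EV (interval -0.70 to -0.09; edgeR adjusted p = 0.080). The call between the oncogenes missed the threshold by little without BCR-ABL1 replicate 1, BCR-ABL1 replicate 2 or C-MYC replicate 1 (edgeR adjusted p = 0.055, 0.055 and 0.050).

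Jak3, the kinase bound to the common gamma chain, and Tyk2, which serves interferon and IL-12 type receptors, fell by less in C-MYC. Jak3 was at 112 and 107 CPM in EV, 93.8 and 102 under BCR-ABL1 and 86.3 and 72.5 under C-MYC, with no overlap between conditions. Its log2 fold change was -0.46 in C-MYC against EV (SE 0.12; edgeR adjusted p = 0.020) and -0.16 in BCR-ABL1 against EV (interval -0.45 to 0.13; edgeR adjusted p = 0.43). The call in C-MYC was lost without C-MYC replicate 2 (-0.33, edgeR adjusted p = 0.13), without BCR-ABL1 replicate 2 (edgeR adjusted p = 0.0503) and when only the EV and C-MYC libraries were fitted (edgeR adjusted p = 0.066). Tyk2 was at 49.5 and 61.5 CPM in EV, 36.9 and 45.0 under BCR-ABL1 and 37.97 and 42.3 under C-MYC, and every EV library lay above every oncogene library. Its log2 fold change was -0.47 in C-MYC against EV (SE 0.16; edgeR adjusted p = 0.0498) and -0.44 in BCR-ABL1 against EV (interval -0.82 to -0.06; edgeR adjusted p = 0.11). The latter passed without EV replicate 1 (-0.58, edgeR adjusted p = 0.031). The call in C-MYC stood at the threshold and was lost under 9 of 14 alternatives, among them leaving out EV replicate 2 (-0.30, edgeR adjusted p = 0.15), either C-MYC library (edgeR adjusted p = 0.23 and 0.11) or either BCR-ABL1 library (edgeR adjusted p = 0.076 for each). Exons of Jak3 share 404 bases with Insl3, which had at most 22 counts in a library, and those of Tyk2 share 554 bases with an antisense gene model.

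Within the kinase family the shares of Jak1 and Jak2 differed between conditions. Per kilobase of annotated exon, Jak1 made up 45.2% and 44.6% of the sum of the 4 kinases in EV, 54.4% and 50.9% under BCR-ABL1 and 42.4% and 45.0% under C-MYC. Jak2 made up 20.2% and 19.1% in EV, 15.4% and 15.9% under BCR-ABL1 and 13.0% and 15.2% under C-MYC. The share of Jak1 was thus above EV in both BCR-ABL1 libraries, and the share of Jak2 was below EV in all 4 oncogene libraries. Jak3 held between 23.1% and 33.2% and Tyk2 between 7.08% and 12.5%. In FPKM the share of Jak3 was larger, between 33.0% and 44.5%, and in C-MYC replicate 1 it exceeded that of Jak1 (34.8%). On GRCm38 Jak1 spans chr4:101152367-101265282 (minus strand), Jak2 chr19:29251828-29313080 (plus), Jak3 chr8:71676296-71690575 (plus) and Tyk2 chr9:21104068-21131243 (minus).

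Stat5a and Stat5b, the transcription factors that IL-7 activates in these cells, passed the threshold in 0 of 3 comparisons each. Stat5b was at 97.5 and 100.03 CPM in EV, 98.0 and 89.5 under BCR-ABL1 and 100.3 and 103 under C-MYC. Its log2 fold changes were -0.08 in BCR-ABL1 against EV (interval -0.32 to 0.17; edgeR adjusted p = 0.68) and 0.04 in C-MYC against EV (interval -0.21 to 0.29; edgeR adjusted p = 0.78). In the deposited FPKM, Stat5b was at 26.9 and 28.4 in EV and at 14.4 and 24.2 under BCR-ABL1, and limma on log2(FPKM + 1) gave -0.54 for BCR-ABL1 against EV (adjusted p = 0.20). Stat5a was at 80.4 and 59.8 CPM in EV, 65.7 and 64.4 under BCR-ABL1 and 85.2 and 75.4 under C-MYC. Here the libraries of EV overlapped with those of both other conditions, and C-MYC lay above BCR-ABL1. Against EV, its log2 fold changes were -0.11 in BCR-ABL1 (interval -0.48 to 0.26; edgeR adjusted p = 0.70) and 0.20 in C-MYC (interval -0.17 to 0.56; edgeR adjusted p = 0.35), and the difference was -0.30 between BCR-ABL1 and C-MYC (edgeR adjusted p = 0.20). Without EV replicate 1 the value of Stat5a in BCR-ABL1 turned to 0.13 (edgeR adjusted p = 0.51) and that in C-MYC rose to 0.43 and passed (edgeR adjusted p = 0.028). When only the BCR-ABL1 and C-MYC libraries were fitted, Stat5a was lower in BCR-ABL1 (-0.31, edgeR adjusted p = 0.045).

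Stat3, which IL-6 and IL-10 type receptors activate, fell in C-MYC by an amount that depended on 1 library. It was at 295 and 125 CPM in EV, 122 and 108 under BCR-ABL1 and 83.5 and 79.4 under C-MYC. EV replicate 1 stood far above the other 5 libraries, and EV replicate 2 was close to BCR-ABL1. The log2 fold change in C-MYC against EV was -1.37 (SE 0.33; interval -2.14 to -0.59; edgeR adjusted p = 0.013), and it was -0.62 without EV replicate 1 and -1.85 without EV replicate 2, with the call kept in both. The call was lost under 5 of 14 alternatives, without C-MYC replicate 1 or 2 (edgeR adjusted p = 0.075 and 0.081) and in the 3 limma fits of FPKM (adjusted p between 0.18 and 0.30). In FPKM, EV replicate 1 was at 75.2, EV replicate 2 at 19.6 and the C-MYC libraries at 18.7 and 18.5. In BCR-ABL1 against EV it was -0.87 (SE 0.33; edgeR adjusted p = 0.12), -0.12 without EV replicate 1 and -1.36 without EV replicate 2 (edgeR adjusted p = 0.70 and 0.00015). EV replicate 1 also had the higher level of S100a8, as given above, and the part of that difference in the value of Stat3 was not tested. The 3 STAT genes lie side by side on chromosome 11: Stat5b at chr11:100780731-100850724 (minus strand), Stat5a at chr11:100859351-100885169 (plus) and Stat3 at chr11:100885098-100939540 (minus). Between Stat5b and Stat5a are 8626 bases, and the ends of Stat5a and Stat3 share 72 bases on opposite strands. Of these neighbours, Stat3 was called lower in C-MYC than in EV, and Stat5a and Stat5b passed in neither direction.

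**Figure D2:**
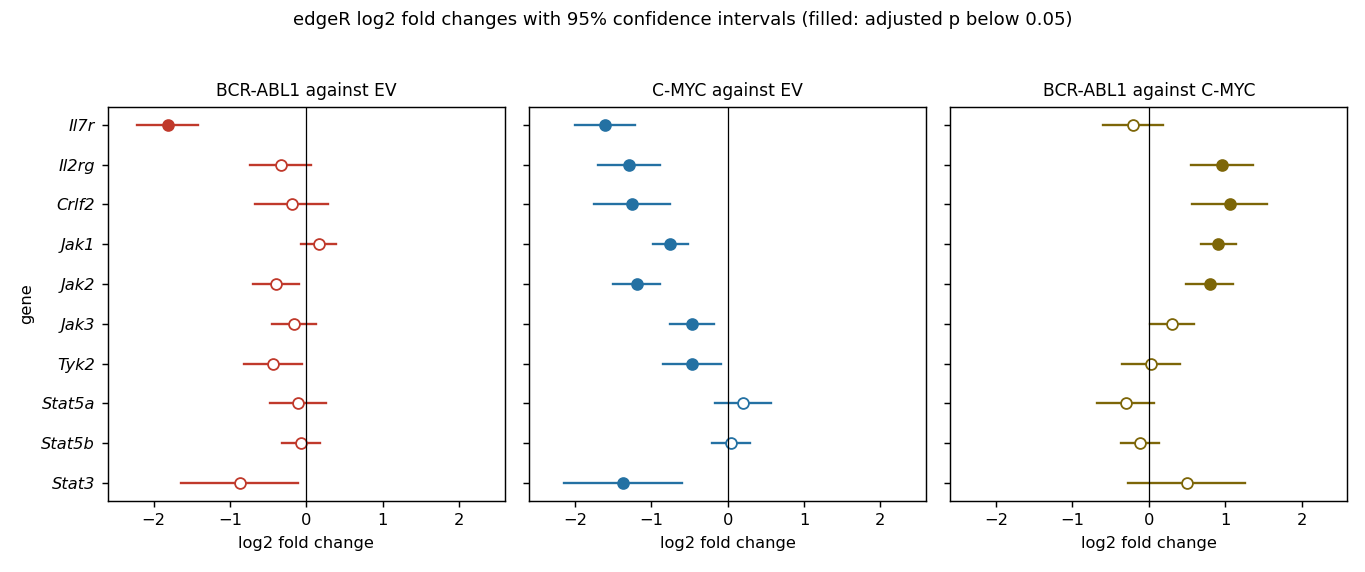
Log2 fold changes (x axis) of the 10 genes in the 3 comparisons, with bars for the 95% confidence interval from edgeR and filled points for an adjusted p below 0.05. Only Il7r is filled in BCR-ABL1 against EV, whereas 8 genes lie to the left of 0 and are filled in C-MYC against EV.

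Counted over the 10 genes, 1 was lower and 0 were higher in BCR-ABL1 than in EV, where 12.0% of all 12786 genes tested were lower and 5.08% higher. In C-MYC 8 of the 10 were lower than in EV and 0 were higher, beside 24.5% of all genes lower and 18.6% higher. In BCR-ABL1 4 genes (Il2rg, Crlf2, Jak1 and Jak2) were higher than in C-MYC and 0 were lower, beside 11.9% and 11.5% of all genes. In these comparisons the 10 genes had medians of -0.26, -0.97 and 0.40 on the log2 scale, and all genes tested had medians of 0.001, -0.08 and 3.3e-05. The comparisons share libraries, since each condition serves in 2 of them. Beside the 8 falls in C-MYC stand the falls of 10 of 12 B cell precursor markers, whose median on the log2 scale was -0.81, and of the markers of other cell types; their part was not tested. The counts depended on single libraries: in BCR-ABL1 against EV 2 genes were called without EV replicate 1 and 3 without EV replicate 2, in C-MYC against EV 5 were called without C-MYC replicate 2, and between BCR-ABL1 and C-MYC 1 was called without BCR-ABL1 replicate 1 and 2 without BCR-ABL1 replicate 2, C-MYC replicate 1 or C-MYC replicate 2. 

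The order of the genes by level depended on how length was taken into account. In the deposited FPKM values of EV, Il7r was first at 282 ± 60.8 (SD, n = 2), Il2rg followed at 90.6 ± 11.01 and Jak1 at 51.5 ± 0.45. Below them came Jak3 at 47.5, Stat3 at 47.4, Stat5b at 27.7, Crlf2 at 23.0, Jak2 at 19.4, Stat5a at 18.9 and Tyk2 at 14.3 FPKM. The EV libraries of Jak3 and Stat3, of Stat3 and Stat5b, of Stat5b and Crlf2, of Crlf2 and Jak2 and of Jak2 and Stat5a overlapped, so these neighbours did not differ beyond their spread. In BCR-ABL1 Il2rg (94.6 ± 34.2 FPKM) and Il7r (77.0 ± 4.61) overlapped at the top, and in C-MYC Il7r (86.1 ± 3.50) stood above Il2rg (52.1 ± 25.5). At the lower end were Tyk2 in BCR-ABL1, at 10.1 ± 1.52 FPKM, and Jak2 in C-MYC, at 7.79 ± 1.24. In CPM per kilobase of annotated exon, on the other hand, Il2rg was first in every condition, at 62.5 ± 11.9 in EV, 49.5 ± 6.04 under BCR-ABL1 and 25.5 ± 3.96 under C-MYC. On that scale Il7r was the fourth in EV at 33.7 ± 8.06, the eighth in BCR-ABL1 at 9.59 ± 0.59 and the seventh in C-MYC at 11.1 ± 0.24. Crlf2 was the second in EV at 45.1 ± 14.3. There the EV libraries of Il2rg and Crlf2, of Crlf2 and Jak1, of Jak1 and Il7r and of Il7r and Stat3 overlapped. Libraries of Il7r and Stat5a overlapped in BCR-ABL1 and in C-MYC, so these neighbours did not differ beyond their spread. How StringTie values of transcripts were combined per symbol is not given in the sources used here, so the place of Il7r relative to Il2rg and Crlf2 cannot be settled from both scales, whereas Il2rg was above Crlf2 in all 6 libraries on each.

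**Figure D3:**
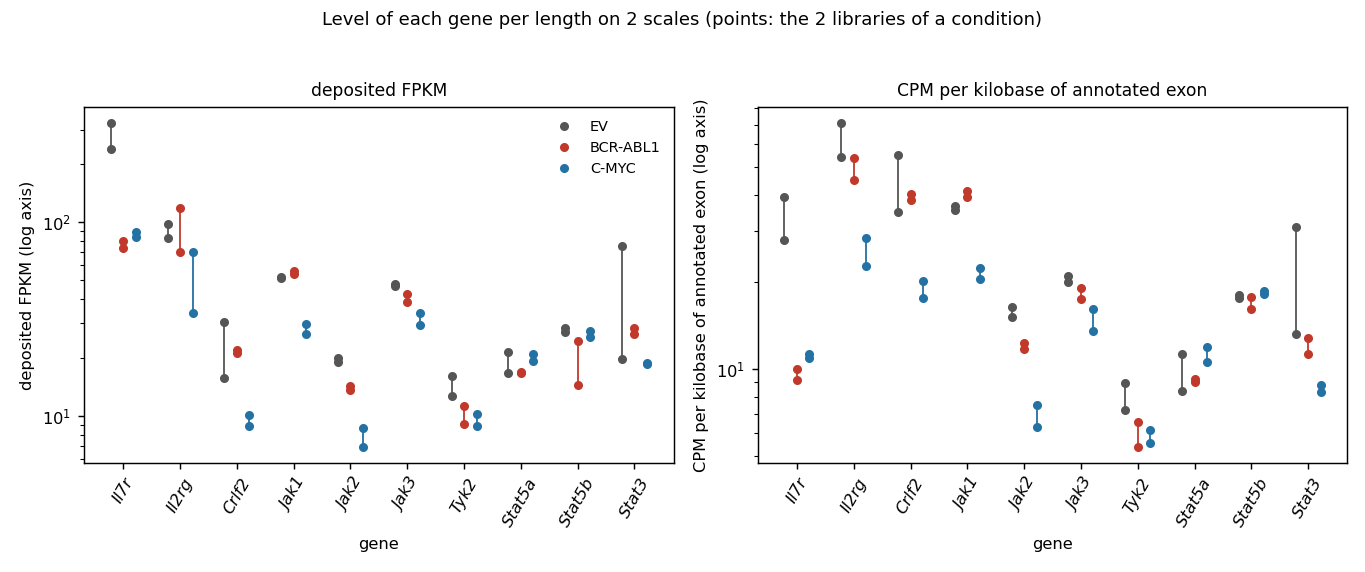
Level per length of the 10 genes on log axes, as deposited FPKM (left) and as CPM per kilobase of annotated exon (right), each point a library and each line joining the 2 libraries of a condition. In EV Il7r is highest at the left and the fourth by its mean at the right, while on both scales its EV libraries lie above its oncogene libraries.

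Other genes with a pattern like that of a called gene were found by the root mean square (RMS) difference of centred log2 CPM over the 6 libraries, among 10613 genes averaging at least 50 counts. Nearest to Il7r was Ptms (RMS 0.083), at 52.1 and 38.2 CPM in EV, 12.6 and 12.0 under BCR-ABL1 and 16.04 and 16.5 under C-MYC, followed by Zfp503 (0.14) and B430306N03Rik (0.15). Nearest to Il2rg were Abi3 (0.045), Rnf167 (0.046) and Ltk (0.063), and nearest to Crlf2 were Il3ra (0.086), Stk38l (0.087) and Snx20 (0.088). Il3ra, the alpha chain of the IL-3 receptor, was at 21.6 and 16.2 CPM in EV, 17.2 and 17.4 under BCR-ABL1 and 9.24 and 7.90 under C-MYC. For Jak1 they were Magi3 (0.053), Mief2 (0.056) and Trappc9 (0.067), for Jak2 Gpr137 (0.049) and 2810408A11Rik (0.068), for Jak3 Zfp628 (0.051), Adrbk1 (0.055) and Cyhr1 (0.057), and for Tyk2 Foxo4 (0.046), Amdhd2 (0.055) and Rad51d (0.065). Stat3 was nearest to Furin (0.13), Neat1 (0.14) and Mxd1 (0.15). The high value of Stat3 in EV replicate 1 was shared by all 3, which follows from choosing them over these same libraries. Furin was at 104 and 57.0 CPM in the EV libraries.

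The other genes of the pathway were taken from 6 lists of 78 genes, of which 65 passed the filter. Over these 65, 18 were lower and 1 was higher in BCR-ABL1 than in EV, 44 were lower and 0 higher in C-MYC than in EV, and 25 were higher and 1 lower in BCR-ABL1 than in C-MYC, to be read against the shares of all genes given above. Leaving out a single BCR-ABL1 library lowered the number called against EV from 19 to 9 (without replicate 1) and 8 (without replicate 2), and that between BCR-ABL1 and C-MYC fell from 26 to 15 without BCR-ABL1 replicate 1 and to 15 without C-MYC replicate 2.

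Of the receptor chains that pair with the common gamma chain, 5 of 6 were tested, and 4 were lower than in EV in each oncogene condition. Over all genes tested, 12.0% were lower in BCR-ABL1 and 24.5% in C-MYC. Il2rb, shared by the IL-2 and IL-15 receptors and typical of T and NK cells, was at 87.9 and 48.6 CPM in EV, 3.79 and 3.49 under BCR-ABL1 and 7.12 and 6.65 under C-MYC (log2 fold change -4.23 and -3.31 against EV; edgeR adjusted p = 0.00037 and 0.00031). The T and NK cell markers fell beside it, and their part was not tested. Il2ra, which marks a stage of B cell precursors and activated T cells, was at 110.0 and 92.4 CPM in EV, 56.9 and 52.2 under BCR-ABL1 and 22.2 and 20.5 under C-MYC, and each condition differed from the others (log2 fold changes -0.89, -2.25 and 1.35; edgeR adjusted p = 0.0048, 0.00018 and 0.0012). Il4ra had log2 fold changes of -1.28 and -1.43 against EV. Il21r fell in C-MYC, at 6.07 and 5.03 CPM beside 66.4 and 33.9 in EV and 32.9 and 25.1 in BCR-ABL1 (log2 fold change -3.17 against EV and 2.39 between the oncogenes), and its value in BCR-ABL1 against EV was -0.79 (edgeR adjusted p = 0.12). Il15ra, named after its values were seen, was the gene lower in BCR-ABL1 than in C-MYC (-0.71, edgeR adjusted p = 0.043).

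Of 22 other JAK-coupled receptor chains tested, 10 were lower in BCR-ABL1 and 18 in C-MYC than in EV, and 0 were higher in either. Beside these stand 12.0% and 24.5% of all genes lower. Between BCR-ABL1 and C-MYC 7 were higher and 0 lower, beside 11.9% and 11.5% of all genes. Those with the largest change among genes averaging at least 50 counts are best known from myeloid and T cells. Csf3r, the receptor for granulocyte colony-stimulating factor, was at 17.5 and 15.0 CPM in EV and between 0.87 and 1.75 elsewhere. Il12rb1 was at 13.7 and 11.2 CPM in EV and between 1.37 and 2.11 elsewhere. Il12rb2 and Il13ra1 also fell in both, with log2 fold changes in BCR-ABL1 against EV of -2.68 and -2.74. The falls of these 4 moved with those of the myeloid and T and NK cell markers, and the part of such cells was not tested.

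Ligands were scarce in the RNA. Il7, added to the medium as protein, had between 9 and 12 counts in each library, and its log2 fold change against EV was -0.005 under BCR-ABL1 and 0.03 under C-MYC. Tslp had 0 counts in all 6 libraries, where a count of 0 allows up to 3 counts or 0.125 to 0.142 CPM per library, covering counting error only. Of 9 ligands, 2 were tested. Il15, named after its values were seen, was lower in both conditions than in EV, at 2.48 and 2.51 CPM in EV and between 0.28 and 0.58 elsewhere.

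Among the other STAT genes, Stat2 and Stat4 fell in C-MYC and Stat6 passed in 0 of 3 comparisons. Stat4 was at 71.0 and 47.9 CPM in EV, 83.8 and 79.2 under BCR-ABL1 and 10.4 and 9.83 under C-MYC, a log2 fold change of -2.55 in C-MYC against EV and 3.01 in BCR-ABL1 against C-MYC (edgeR adjusted p = 0.00025 and 0.00036). Stat2 was at 104 and 55.6 CPM in EV, 53.6 and 39.6 under BCR-ABL1 and 18.7 and 17.3 under C-MYC. Stat2 had a log2 fold change of -2.15 in C-MYC against EV (edgeR adjusted p = 0.0012) and of 1.37 in BCR-ABL1 against C-MYC (edgeR adjusted p = 0.014).

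The list of negative regulators held the gene that rose in BCR-ABL1 against EV. The number of pathway genes called higher there depended on the fit: it was 1 here, 4 with DESeq2 and without the filter on low counts, 6 without EV replicate 1, 2 without EV replicate 2 and 0 with limma on FPKM without the filter. Cish, a SOCS family gene induced by STAT5, was at 50.5 and 99.0 CPM in EV, 233 and 211 under BCR-ABL1 and 62.9 and 51.9 under C-MYC, so that both BCR-ABL1 libraries lay above all others. Its log2 fold change was 1.57 in BCR-ABL1 against EV (edgeR adjusted p = 0.0089) and 1.95 against C-MYC (edgeR adjusted p = 0.0038). Socs1 and Socs3, inhibitors of JAK activity, were at 0.37 and 0.63 on the log2 scale in BCR-ABL1 against EV (edgeR adjusted p = 0.44 and 0.072), and both fell in C-MYC (-1.50 and -1.57, edgeR adjusted p = 0.0062 and 0.0011). Socs3 was at 34.9 and 50.0 CPM in EV, 71.1 and 60.2 under BCR-ABL1 and 15.9 and 12.8 under C-MYC, with no overlap. Socs2 was at 331 and 287 CPM in EV, 421 and 371 under BCR-ABL1 and 323 and 280 under C-MYC, and passed in 0 of 3 comparisons. Ptpn6, the phosphatase SHP-1, fell in C-MYC (-1.32). Of the 21 regulators, 0 were lower in BCR-ABL1 and 11 in C-MYC than in EV, and 10 were higher in BCR-ABL1 than in C-MYC, and the medians against EV were 0.04 under BCR-ABL1 and -0.46 under C-MYC on the log2 scale. Over all genes tested, 12.0% and 24.5% were lower than in EV, and 11.9% were higher in BCR-ABL1 than in C-MYC.

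The PI3K arm, which IL-7 also engages, had 2 of 11 genes (18.2%) lower in BCR-ABL1 and 7 (63.6%) in C-MYC than in EV. Over all genes tested, 12.0% and 24.5% were lower. Foxo1, a factor that PI3K signalling inactivates, was at 444 and 286 CPM in EV, 430 and 321 under BCR-ABL1 and 206 and 170 under C-MYC, a log2 fold change of -0.96 in C-MYC (edgeR adjusted p = 0.011) and 0.04 in BCR-ABL1 (edgeR adjusted p = 0.93) against EV. Pik3cd, the catalytic subunit typical of leukocytes, was at 963 and 1072 CPM in EV and at 587 and 528 in C-MYC (log2 fold change -0.87). Pik3cb fell in BCR-ABL1, from 5.70 and 4.97 CPM in EV to 1.66 and 1.29 (log2 fold change -1.86, edgeR adjusted p = 0.023).

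**Figure D4:**
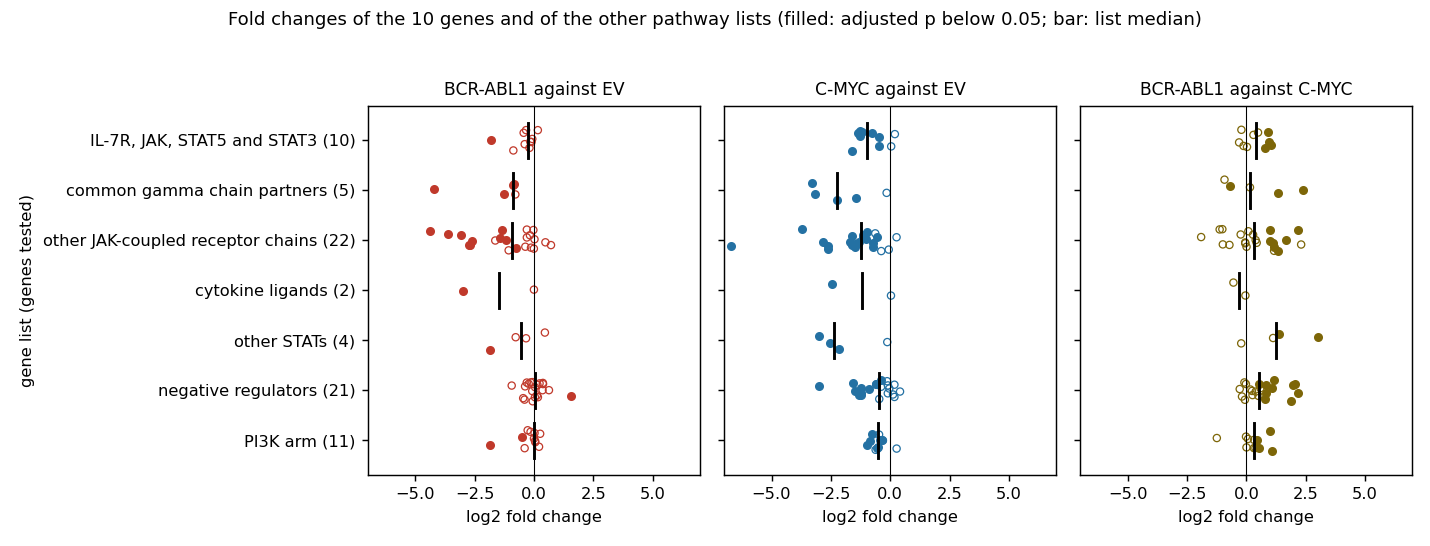
Fitted log2 fold changes (x axis) of the 10 genes and of 6 lists of other pathway genes (rows, with the number tested) in the 3 comparisons. Points are genes, filled where the edgeR adjusted p is below 0.05, and bars are list medians. In C-MYC against EV no filled point lies to the right of 0, and the fold of Osmr at the far left, at 0 counts in both C-MYC libraries, depends on the prior count.

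**Figure D5:**
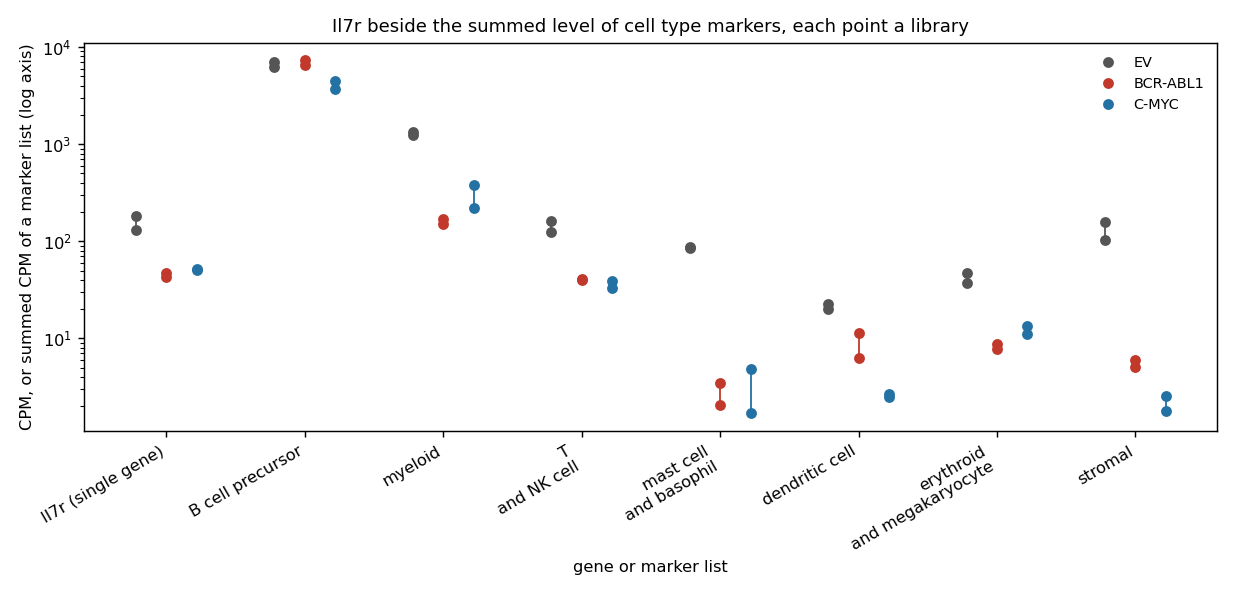
CPM of Il7r and summed CPM of 7 marker lists on a log axis, each point a library, coloured by condition. Il7r was at 131 to 184 CPM in EV and 42.8 to 52.4 elsewhere, and each list of markers of other cells was also highest in EV, whereas the B cell precursor markers summed to between 6581 and 7284 CPM in BCR-ABL1 and between 6257 and 7003 in EV.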

How the data were processed

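Poly(A) RNA-seq of 6 libraries, 2 each for EV, BCR-ABL1 and C-MYC, was analysed, and conditions were taken from the sample labels. ChIP-seq samples were not analysed here. The authors aligned reads to GRCm38/mm10 with STAR 2.5.0 and the UCSC known genes and deposited whole-number counts per gene symbol without normalization. The deposited FPKM values were calculated by the authors with StringTie 1.3.0, and the program that counted reads and its strand setting are not given in the sources used here. The tables held 0 columns of other samples and 0 rows without a gene name.

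From the counts, all 6 libraries were fitted in a single model in edgeR 4.0.16 (R 4.3.3) with TMM scaling, filterByExpr and the quasi-likelihood test, without a covariate, and genes were called at a Benjamini-Hochberg adjusted p below 0.05 over all 12786 genes tested. Totals were between 20687092 and 24095955 counts per library. The spread between libraries (common biological coefficient of variation 0.151, 3 residual degrees of freedom) limits the precision more than depth does. CPM are TMM-scaled counts per 1000000 counts. Exon lengths and positions are from GENCODE release M21 (GRCm38, 1-based), and promoter windows are from RefSeq. DESeq2 1.42.0 and limma 3.58.1 on log2(FPKM + 1) served as alternatives, beside others given in the closing section. FPKM fold changes are on that scale and understate changes of low genes. Scripts were tested on simulated data with 200 changed genes.

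The 10 genes, the lists and the tests were chosen with earlier results of these data known, so no list is independent support. Named are the 10 genes, the nearest 3 genes of each called one, Cish, Socs1, Socs2, Socs3, Il7, Tslp and Foxo1, and in each pathway list at most 4 called genes with the largest absolute log2 fold change and a mean of at least 50 counts. Myc, S100a8, Osmr and Stat6 are named beside this rule, and a few genes that it names are not reported here. The myeloid marker Ly6g was not used here. Python 3.11.15, numpy 2.4.6, pandas 2.3.3, scipy 1.17.1 and matplotlib 3.10.9 were used.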

Additional observations from a re-analysis of the deposited data

How the results depend on the processing

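Of 420 recomputed log2 fold changes of the 10 genes (30 values, each under 14 alternatives), 362 kept their direction and their side of the threshold, 34 lost and 14 gained a call, and 10 turned in sign, all of them uncalled in both fits. Those turned were Il2rg in BCR-ABL1 against EV with limma on FPKM (0.0199 with a pseudocount of 1, with or without the filter, and 0.0196 with 0.1), Stat5b in C-MYC against EV in the same fits (-0.0668 and -0.0690), and 4 values with a library left out. Over the libraries left out, Crlf2 in BCR-ABL1 against EV lay between -0.48 and 0.18, Stat5a between -0.30 and 0.13, and Tyk2 in BCR-ABL1 against C-MYC between -0.13 and 0.17. The causes were not tested.

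Leaving out single libraries, the 10 genes gave 1 to 3 calls in BCR-ABL1 against EV, 5 to 9 in C-MYC against EV and 1 to 5 in BCR-ABL1 against C-MYC, and the other pathway genes 8 to 27, 33 to 48 and 15 to 36. Over all genes the ranges were 665 to 2729, 3329 to 6077 and 618 to 4519, beside 2180, 5515 and 2991 with all libraries. In BCR-ABL1 against EV, 2 of the 10 genes were called by DESeq2 (Il7r and Stat3) and 2 without the filter on low counts, and over all genes limma called 1257 with a pseudocount of 1, 1251 with 0.1 and 1425 without the filter. Limma without the filter called 4 of the 10 genes in C-MYC against EV and, in BCR-ABL1 against C-MYC, 2 of the 10, 16 other pathway genes and 1412 of all genes. With only the 4 libraries compared, 4538 genes were called in BCR-ABL1 against C-MYC.

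EV, BCR-ABL1 and C-MYC share the replicate numbers 1 and 2, which no source ties to a shared mouse or day. Deviations of same-numbered libraries from their group means had a Pearson r across genes of 0.273 for EV and BCR-ABL1, 0.236 for EV and C-MYC and 0.204 for BCR-ABL1 and C-MYC, with 2 numbers only. With the replicate number as a block, 5 of the 10 genes and 32 other pathway genes were called in BCR-ABL1 against EV, 8 and 50 in C-MYC against EV, and 4 and 36 in BCR-ABL1 against C-MYC. The block raised the calls over all 12786 genes tested too, to 3224, 6631 and 4278, beside 2180, 5515 and 2991 without it. In BCR-ABL1 against EV the block added the calls of Il2rg, Jak2, Tyk2 and Stat3 (edgeR adjusted p = 0.039, 0.045, 0.023 and 0.0497, beside 0.23, 0.080, 0.11 and 0.12 without it), all lower, and 8 other pathway genes were called higher there and 24 lower. Values of genes at few counts, such as Il7, Tslp and Osmr, are limited by depth, and those of the 10 genes by the spread between 2 libraries.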
